A study of Homo sapiens with 6 samples.

Results

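The cytosolic heat shock proteins and their main transcription factor, HSF1, were followed in AGS cells, a human line established from a gastric adenocarcinoma. The members were 10 genes taken by symbol, with no threshold on their values: HSPB8, BAG3, HSPB1, HSPA1A, HSPA1B, HSPA8, DNAJB1, HSPH1, HSP90AA1 and HSF1. All 10 were among the 18597 genes measured in each library, and all 10 passed the filter on low values that left 10994 genes for testing. The series compared 3 libraries of AGS cells transfected with siDUB1, a small interfering RNA against DUB1, with 3 libraries of AGS cells transfected with siControl, its control RNA. Both groups were the same line with no further treatment named, and the labels give neither the time after transfection nor if each replicate had its own culture; p-values therefore cover the spread among these libraries alone, and that spread may be technical. No untransfected cells and no other siRNA were analysed here, so a response to the duplex and a loss of DUB1 cannot be told apart. In bulk RNA, fewer cells of a kind and less RNA per cell cannot be told apart either. Expression was given in FPKM, a fragment count set against transcript length and library size, which allows levels to be compared between genes within a library. By its title the series asks how DUB1 bears on Hippo signalling, the pathway that restrains the growth co-activators YAP and TAZ.

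Heat shock proteins are chaperones that bind unfolded proteins and either refold them or pass them on for degradation. Small heat shock proteins such as HSPB1 and HSPB8 hold unfolded clients without using ATP. HSP70 proteins, here HSPA8, HSPA1A and HSPA1B, refold clients with the help of J-domain proteins such as DNAJB1 and of nucleotide exchange factors such as HSPH1 and BAG3, and HSP90 acts late in the folding of kinases and receptors. HSF1 is held inactive by chaperones and, when unfolded proteins draw these away, binds heat shock elements, inverted repeats of the letters GAA, in chaperone genes. BAG3 links HSPB8 to HSP70 in chaperone-assisted selective autophagy, which clears damaged filamin, and its WW domain is known to bind the Hippo kinase LATS1 and angiomotin-like proteins.

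The target of siDUB1 was taken to be USP36, the gene with the synonym DUB1 in the RefSeq gene table, which stood at 4.11, 4.75 and 2.59 FPKM in siDUB1 libraries, against 9.16, 6.74 and 7.25 FPKM in siControl libraries, and fell (log2 change -0.87, limma adjusted p = 0.0432). One library stood apart. Across genes on the log2 scale, r was 0.979 and 0.977 between siDUB1 replicate 3 and the other siDUB1 libraries, and 0.999 between those. When tested genes were split by GC content into 10 bins, the median difference of replicate 3 from the other siDUB1 libraries was -0.86 in the bin lowest in GC and 0.40 in the highest bin, on the log2(FPKM + 1) scale. Results are therefore given with all 6 libraries and without siDUB1 replicate 3. For the 10 genes they are also given after a correction for GC content and length where it changes a call. Counts of the chaperone families after that correction stand with the dependence on processing, and the cell type markers are given without it. Of 10 epithelial markers, 9 were above 1 FPKM in at least 1 library and CLDN3 was under 1 FPKM in all 6, and their summed level was 6305 to 8994 FPKM in siDUB1 and 7512 to 7975 FPKM in siControl libraries, most of it from KRT8, KRT18 and KRT19. The 8994 FPKM was siDUB1 replicate 3, and the other siDUB1 libraries lay below all controls. Among these markers KRT7 fell (log2 change -1.86, limma adjusted p = 0.00218) and CLDN7 rose (log2 change 0.53, limma adjusted p = 0.0284) with all 6 libraries. Without siDUB1 replicate 3, 7 of the 9 tested markers fell and 1 rose, where 25.6% of all genes were lower and 31.7% higher. Of 15 markers of fibroblasts, leukocytes and endothelium, 11 were under 1 FPKM in all 6 libraries. Of the other 4, LYZ, which gastric glands also make, rose (log2 change 1.49, limma adjusted p = 0.0119), CD68 rose (1.16, limma adjusted p = 0.0043), COL1A1 fell (-0.93, limma adjusted p = 0.0101) and PDGFRA did not pass (-0.48, limma adjusted p = 0.154). The summed level of those 15 markers was 394 to 662 FPKM in siDUB1 and 216 FPKM in each siControl library, most of it from LYZ, and its part in the results below was not tested.

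HSPB8 fell in siDUB1 cells, and it was the only one of the 10 genes to pass the test with all 6 libraries. The other 9 genes, HSF1 included, did not pass, and none rose. The test was limma on log2(FPKM + 1) with Benjamini-Hochberg adjustment over all genes tested, at an adjusted p under 0.05. Of all tested genes it called 14.1%, 8.13% higher and 5.92% lower. At an unadjusted p under 0.05, 1 member was higher and 4 were lower, where 2006 of the 10994 tested genes were higher and 1677 lower. Every siDUB1 library lay below every siControl library for 6 members, against 28.5% of all genes, and above for 1 member, against 24.8%, so that 7 members did not overlap, against 53.3%. The median log2 change was -0.30 over the 10 genes and -0.064 over all genes tested. When siDUB1 replicate 3 was left out, 6 members fell and 1 rose, 7 of 10, where 57.3% of all genes were called, 25.6% lower and 31.7% higher. With that library left out, 7 members lay wholly below siControl and 2 above, 9 in all, where 33.0% of all genes lay below, 38.9% above and 71.9% on either side. With all 6 libraries 1 call among 10 genes is near the share of all genes, and with that library left out 7 of 10 is not far above it. The 6 were HSPB8, BAG3, HSPB1, HSPA1B, HSPA8 and HSPH1, and the member that rose was HSF1.

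**Figure D1:**
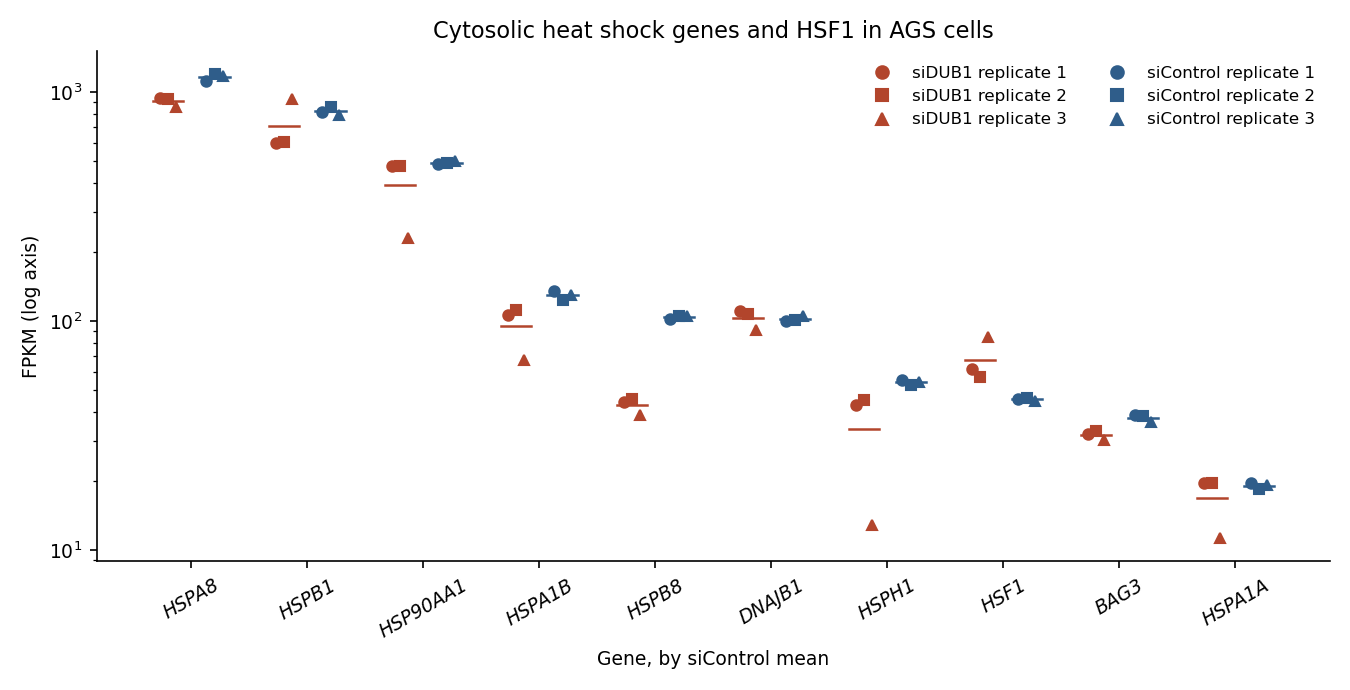
Expression of the 10 genes in each library, in FPKM on a log axis, ordered by the siControl mean; points are libraries and horizontal lines are means of 3 libraries. HSPB8 is at 39.0 to 45.5 FPKM in siDUB1 libraries and at 102 to 105 FPKM in siControl libraries, while for HSPH1, HSP90AA1, HSPA1A and HSPA1B only siDUB1 replicate 3 lies far below the rest.

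HSPB8 (NCBI Gene 26353, chromosome 12, 119178931 to 119194746 on GRCh38) encodes the small heat shock protein that pairs with BAG3. It stood at 44.1, 45.5 and 39.0 FPKM in siDUB1 replicates 1, 2 and 3, against 102, 105 and 105 FPKM in siControl replicates 1, 2 and 3. The groups were far apart, and siDUB1 replicate 3 lay close to the other siDUB1 libraries. The mean was 42.9 ± 3.45 FPKM in siDUB1 and 103.75 ± 1.80 FPKM in siControl (SD, n = 3 in each group), 2.42 times lower in siDUB1. Its log2 change was -1.26 (SE 0.089, limma adjusted p = 0.00195), rank 121 from the lowest among the 10994 tested genes. Leaving out siDUB1 replicate 3 gave -1.19 (limma, adjusted p = 1.72e-09). The call was kept in all 18 alternatives tried, with log2 changes between -1.33 and -1.10.

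BAG3 (NCBI Gene 9531, chromosome 10, 119651380 to 119677819) encodes the co-chaperone that holds HSPB8 and HSP70 together. It had 32.0, 33.2 and 30.2 FPKM in siDUB1 replicates 1, 2 and 3, against 38.7, 38.2 and 36.2 FPKM in siControl replicates 1, 2 and 3. The groups did not overlap, but the gap was small. The log2 change was -0.24 (SE 0.09) with a 95% interval from -0.45 to -0.04, and it did not pass with all 6 libraries (limma, adjusted p = 0.105). BAG3 fell in the fit without siDUB1 replicate 3 (log2 change -0.21, limma adjusted p = 0.00554). It also fell with all 6 libraries after the GC and length correction (log2 change -0.38, limma adjusted p = 0.0218). The messages of the pair changed by unequal amounts. HSPB8 stood at 1.38, 1.37 and 1.29 times the FPKM of BAG3 in siDUB1 libraries, against 2.62, 2.75 and 2.89 times in siControl libraries. These ratios are taken within a library, so they are free of its scaling, and they did not overlap between groups.

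The 250 bases before the start sites of HSPB8 and BAG3 are shown because HSPB8 holds a heat shock element core there and BAG3 does not. They are RefSeq sequences on GRCh38.p14, from the plus strand at chr12:119178681-119178930 for HSPB8 and chr10:119651130-119651379 for BAG3. Capitals mark GAANNTTC or TTCNNGAA, the cores of 2 inverted repeats, which read the same on both strands. In HSPB8 the match lies 88 to 81 bases before the start.
HSPB8: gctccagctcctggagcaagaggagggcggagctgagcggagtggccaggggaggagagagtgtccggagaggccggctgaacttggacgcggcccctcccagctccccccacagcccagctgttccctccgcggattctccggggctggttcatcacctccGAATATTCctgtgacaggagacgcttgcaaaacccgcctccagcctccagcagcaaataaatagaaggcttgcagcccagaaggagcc
BAG3: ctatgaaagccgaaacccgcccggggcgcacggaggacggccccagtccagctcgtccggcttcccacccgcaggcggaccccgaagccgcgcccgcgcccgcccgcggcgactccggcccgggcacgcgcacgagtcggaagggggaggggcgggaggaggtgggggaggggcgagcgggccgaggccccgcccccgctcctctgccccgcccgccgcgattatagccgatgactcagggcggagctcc
Of all 35116 RefSeq promoter windows of this length, 11.6% hold at least 1 such core and 0.29% hold the exact letters found in HSPB8, GAATATTC. A match is a description of these letters, not evidence that HSF1 binds there.

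HSPB1 (NCBI Gene 3315, chromosome 7, 76302673 to 76304292) encodes HSP27, an abundant small heat shock protein that also binds actin. It stood at 598, 605 and 929 FPKM in siDUB1 replicates 1, 2 and 3, against 818, 858 and 793 FPKM in siControl replicates 1, 2 and 3. siDUB1 replicates 1 and 2 were the lowest of the 6 libraries and siDUB1 replicate 3 was the highest, so the groups overlapped. With all 6 libraries the log2 change was -0.24 (95% interval -0.69 to 0.20, limma adjusted p = 0.373). When siDUB1 replicate 3 was left out HSPB1 fell, with a log2 change of -0.45 (SE 0.056, limma adjusted p = 2.81e-05). Its transcripts are rich in GC (62.2%), the range in which siDUB1 replicate 3 gave higher values over all genes. After the GC and length correction the log2(FPKM + 1) values were 9.21, 9.26 and 9.48 in siDUB1 libraries, against 9.82, 9.84 and 9.78 in siControl libraries. On that corrected scale the groups did not overlap and HSPB1 fell with all 6 libraries (log2 change -0.50, limma adjusted p = 0.0101).

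HSPA1A and HSPA1B encode the heat-inducible HSP70. They lie side by side on chromosome 6, HSPA1A (NCBI Gene 3303) at 31815543 to 31817942 and HSPA1B (NCBI Gene 3304) at 31827738 to 31830254. Their longest coding transcripts in GENCODE are 98.6% identical over 2152 aligned positions, so the split of reads between the copies is uncertain. HSPA1A stood at 19.5, 19.5 and 11.3 FPKM in siDUB1 replicates 1, 2 and 3, against 19.6, 18.4 and 19.2 FPKM in siControl replicates 1, 2 and 3. HSPA1B stood at 106, 111 and 67.4 FPKM in siDUB1 libraries, against 135, 124 and 130 FPKM in siControl libraries. For both copies siDUB1 replicate 3 was the lowest library, and the groups overlapped for HSPA1A but not for HSPA1B. Summed, the copies gave 126, 131 and 78.7 FPKM in siDUB1 libraries, against 155, 142 and 149 FPKM in siControl libraries. The summed log2 change was -0.44 (SE 0.20) and did not pass with all 6 libraries (limma, adjusted p = 0.17). It was -0.21 without siDUB1 replicate 3 and passed (limma, adjusted p = 0.00387). Taken singly and without that library, HSPA1B fell (log2 change -0.25, limma adjusted p = 0.00135), while HSPA1A had a log2 change of 0.034 with a 95% interval from -0.089 to 0.16. The GC content of both transcripts, 59.3% for HSPA1A and 58.7% for HSPA1B, lies in a bin where the median difference of siDUB1 replicate 3 was 0.16, and both stood low in it.

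The start sites of HSPA1A and HSPA1B are shown because they carry the same 8 letters as HSPB8, at 106 to 99 and at 105 to 98 bases before the start. The sequences are RefSeq, GRCh38.p14, plus strand, from chr6:31815293-31815542 and chr6:31827488-31827737, with capitals as above. The pair is 93.6% identical over 251 aligned positions.
HSPA1A: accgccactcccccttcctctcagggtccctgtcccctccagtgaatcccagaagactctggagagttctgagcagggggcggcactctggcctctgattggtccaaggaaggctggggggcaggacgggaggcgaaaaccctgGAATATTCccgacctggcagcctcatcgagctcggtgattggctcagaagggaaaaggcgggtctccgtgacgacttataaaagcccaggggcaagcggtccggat
HSPA1B: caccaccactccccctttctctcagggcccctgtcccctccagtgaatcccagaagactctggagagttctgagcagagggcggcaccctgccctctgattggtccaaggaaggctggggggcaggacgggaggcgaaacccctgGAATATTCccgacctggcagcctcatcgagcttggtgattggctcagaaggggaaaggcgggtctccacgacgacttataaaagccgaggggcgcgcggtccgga
The 3 genes that share GAATATTC had unequal log2 changes, -1.26 for HSPB8, -0.48 for HSPA1B and -0.21 for HSPA1A, with all 6 libraries.

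HSPA8 (NCBI Gene 3312, chromosome 11, 123057489 to 123062462) encodes HSC70, the constitutive HSP70. It was the most abundant of the 10 messages, at 939, 927 and 861 FPKM in siDUB1 replicates 1, 2 and 3, against 1113, 1197 and 1170 FPKM in siControl replicates 1, 2 and 3. All siDUB1 libraries lay below all siControl libraries, and siDUB1 replicate 3 was near the others. The mean was 909 ± 42.1 FPKM in siDUB1 and 1160 ± 42.9 FPKM in siControl (SD, n = 3 in each group). The log2 change was -0.35 (SE 0.095), just short of the threshold with all 6 libraries (limma, adjusted p = 0.0569). HSPA8 fell without siDUB1 replicate 3 (log2 change -0.31, limma adjusted p = 6.52e-04). After the GC and length correction with all 6 libraries it did not pass (log2 change -0.26, limma adjusted p = 0.11). On that corrected log2 scale siDUB1 replicate 3, at 10.08, lay nearer to the siControl libraries (10.10, 10.19 and 10.12) than to siDUB1 replicates 1 and 2 (9.79 and 9.76). Its start site, RefSeq GRCh38.p14, minus strand, chr11:123062137-123062386, is shown because it holds 2 runs of 3 inverted repeats, a form found in 0.441% of all windows. They lie 230 to 218 and 55 to 43 bases before the start.
HSPA8: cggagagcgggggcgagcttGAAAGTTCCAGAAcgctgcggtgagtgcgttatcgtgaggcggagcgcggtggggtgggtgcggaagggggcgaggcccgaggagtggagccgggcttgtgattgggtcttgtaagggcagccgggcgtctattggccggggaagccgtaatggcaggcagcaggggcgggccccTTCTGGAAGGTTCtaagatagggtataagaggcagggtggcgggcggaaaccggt

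DNAJB1 (NCBI Gene 3337, chromosome 19, 14514769 to 14560391) encodes HSP40, the J-domain protein that delivers clients to HSP70 and helps to shut HSF1 off again. It had 111, 107 and 91.3 FPKM in siDUB1 libraries, against 100.01, 100.49 and 105 FPKM in siControl libraries. The groups overlapped, with 2 siDUB1 libraries above all controls and siDUB1 replicate 3 below them. The log2 change was 0.012 with a 95% interval from -0.22 to 0.25 (limma, adjusted p = 0.938), and without siDUB1 replicate 3 it was 0.096 with an interval from -0.0094 to 0.20. Those intervals leave out a change of the size seen for HSPB8. Of its 3 start sites in the RefSeq table, the middle one, minus strand, chr19:14518398-14518647, holds 2 cores, 77 to 70 and 47 to 40 bases before the start. It is shown because it holds more than 1 core, while the other start sites of the gene hold none. Which start site these cells use was not tested.
DNAJB1: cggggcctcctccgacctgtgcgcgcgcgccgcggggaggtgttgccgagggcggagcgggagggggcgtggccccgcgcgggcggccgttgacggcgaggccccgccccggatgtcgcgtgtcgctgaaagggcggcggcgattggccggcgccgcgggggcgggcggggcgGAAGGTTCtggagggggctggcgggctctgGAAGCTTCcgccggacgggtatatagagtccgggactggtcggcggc

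HSPH1 (NCBI Gene 10808, chromosome 13, 31134973 to 31162388) encodes HSP105, an exchange factor of HSP70. It stood at 42.9, 45.2 and 12.9 FPKM in siDUB1 replicates 1, 2 and 3, against 55.0, 52.7 and 53.9 FPKM in siControl replicates 1, 2 and 3. The groups did not overlap, but siDUB1 replicate 3 lay far below all others. The spread within siDUB1 was 53.6% of the mean, against 2.08% in siControl, and the log2 change of -0.85 (SE 0.45) did not pass (limma, adjusted p = 0.227). HSPH1 fell without siDUB1 replicate 3 by 0.28 on the log2 scale (limma, adjusted p = 4.23e-04), and with the GC and length correction as well it fell by 0.14 (limma, adjusted p = 0.0122). Its transcripts have the lowest GC content of the 10 genes, 40.0%.

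HSP90AA1 (NCBI Gene 3320, chromosome 14, 102080742 to 102139749) encodes the inducible HSP90 alpha. It stood at 473, 473 and 229 FPKM in siDUB1 replicates 1, 2 and 3, against 483, 488 and 499 FPKM in siControl replicates 1, 2 and 3. The first 2 siDUB1 libraries were just under the controls and siDUB1 replicate 3 stood far below. The log2 change was -0.40 (SE 0.28, limma adjusted p = 0.344) with all 6 libraries. With that library left out it was -0.050 with a 95% interval from -0.16 to 0.059 (limma, adjusted p = 0.415), so the mean of 392 ± 141 FPKM in siDUB1, against 490 ± 8.49 FPKM in siControl (SD, n = 3 in each group), rested on that library. Its GC content was 44.3%. The constitutive paralogue HSP90AB1, named after its values were seen, had 492, 497 and 377 FPKM in siDUB1 libraries, against 582, 569 and 577 FPKM in siControl libraries. HSP90AB1 did not pass with all 6 libraries (limma, adjusted p = 0.115) and fell without siDUB1 replicate 3 (log2 change -0.22, limma adjusted p = 0.00262). The start site of HSP90AA1 at chr14:102087045-102087294, minus strand, RefSeq GRCh38.p14, is shown because it holds a run of 3 inverted repeats 88 to 76 bases before the start and a further core at 68 to 61.
HSP90AA1: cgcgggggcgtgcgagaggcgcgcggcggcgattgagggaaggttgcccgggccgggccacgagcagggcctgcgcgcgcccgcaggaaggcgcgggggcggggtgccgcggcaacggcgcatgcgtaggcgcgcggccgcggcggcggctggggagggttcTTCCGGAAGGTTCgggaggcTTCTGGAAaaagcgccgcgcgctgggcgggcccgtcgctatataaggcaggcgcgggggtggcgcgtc

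HSF1 (NCBI Gene 3297, chromosome 8, 144291604 to 144314720) encodes the transcription factor that drives heat shock genes, and it was the only member with every siDUB1 library above every siControl library. Its message stood at 61.5, 56.7 and 84.9 FPKM in siDUB1 replicates 1, 2 and 3, against 45.7, 46.2 and 44.7 FPKM in siControl replicates 1, 2 and 3. The groups were apart, and siDUB1 replicate 3 was the highest. The mean was 67.7 ± 15.1 FPKM in siDUB1 and 45.5 ± 0.773 FPKM in siControl (SD, n = 3 in each group). With all 6 libraries the log2 change was 0.54 (SE 0.16) and did not pass (limma, adjusted p = 0.0667). HSF1 rose without siDUB1 replicate 3 (log2 change 0.37, limma adjusted p = 8.49e-05), and after the GC and length correction with all 6 libraries (log2 change 0.37, limma adjusted p = 0.0202). With both the correction and the library left out the log2 change was 0.29 (limma, adjusted p = 3.43e-04). Its transcripts have the highest GC content of the 10, 63.9%. The activity of HSF1 is set on the protein, by release from chaperones and by phosphorylation, and message levels do not measure it.

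**Figure D2:**
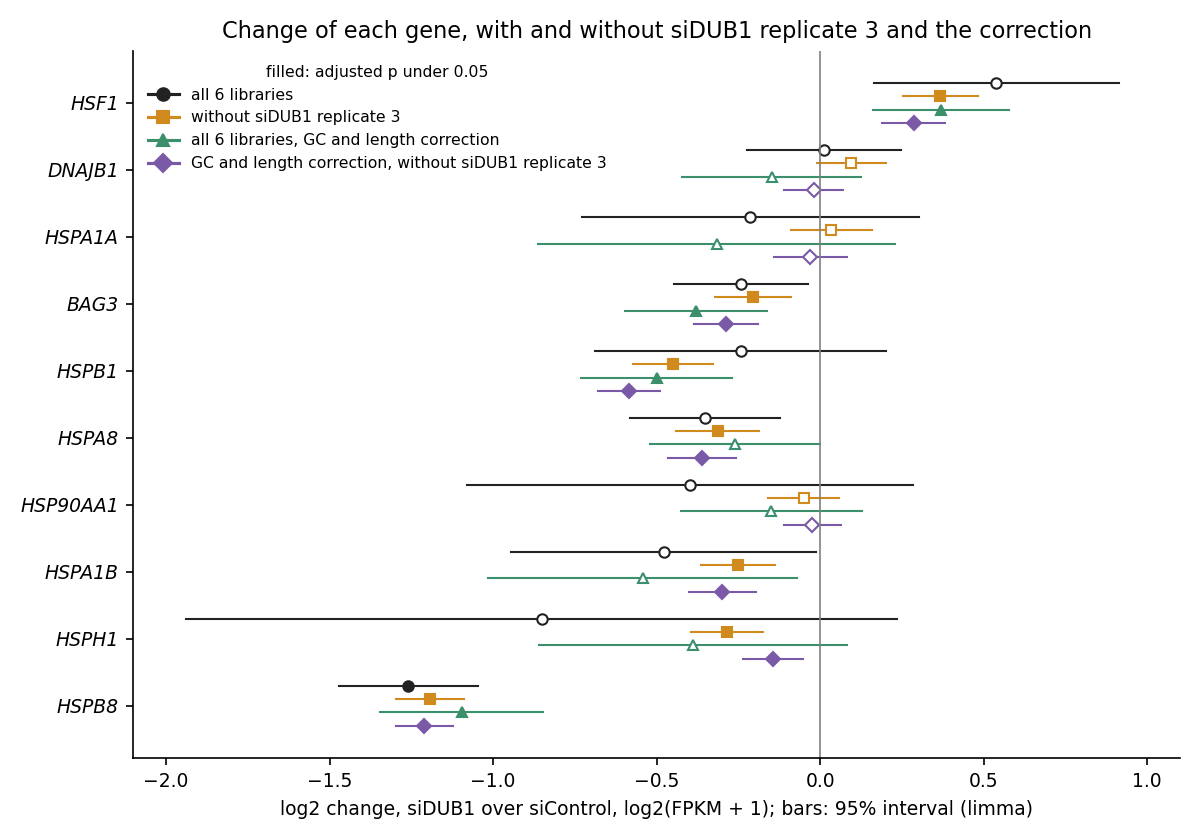
Log2 change of each of the 10 genes, siDUB1 over siControl, with 95% intervals from limma, with all 6 libraries, without siDUB1 replicate 3, and with the GC and length correction in both sets; filled symbols have an adjusted p under 0.05. HSPB8 lies between -1.26 and -1.10 in all 4, HSF1 between 0.29 and 0.54, and the intervals of HSPH1 and HSP90AA1 are widest with all 6 libraries.

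Beyond HSPB8, 6 members passed without siDUB1 replicate 3 that did not pass with it. The log2 difference of that library from siDUB1 replicates 1 and 2 was -1.70 for HSPH1 and -1.04 for HSP90AA1, at GC contents of 40.0% and 44.3%. Both lay below the medians of their GC bins, -0.86 and -0.70. The difference was 0.63 for HSPB1 and 0.52 for HSF1, at 62.2% and 63.9%. Both lay above the medians of their GC bins, 0.26 and 0.40. HSPA1A and HSPA1B, with -0.74 and -0.68, lay well under the median of genes of similar GC, 0.16. HSPB8 and HSPA8, with -0.20 and -0.12, lay above theirs. With the correction for GC and length and all 6 libraries, HSF1 was called higher and HSPB8, BAG3 and HSPB1 lower, where 31.9% of all genes were called, 17.0% higher and 14.9% lower. With the correction and without siDUB1 replicate 3, 1 member was called higher and 6 lower, where 58.4% of all genes were called, 30.2% higher and 28.2% lower.

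**Figure D3:**
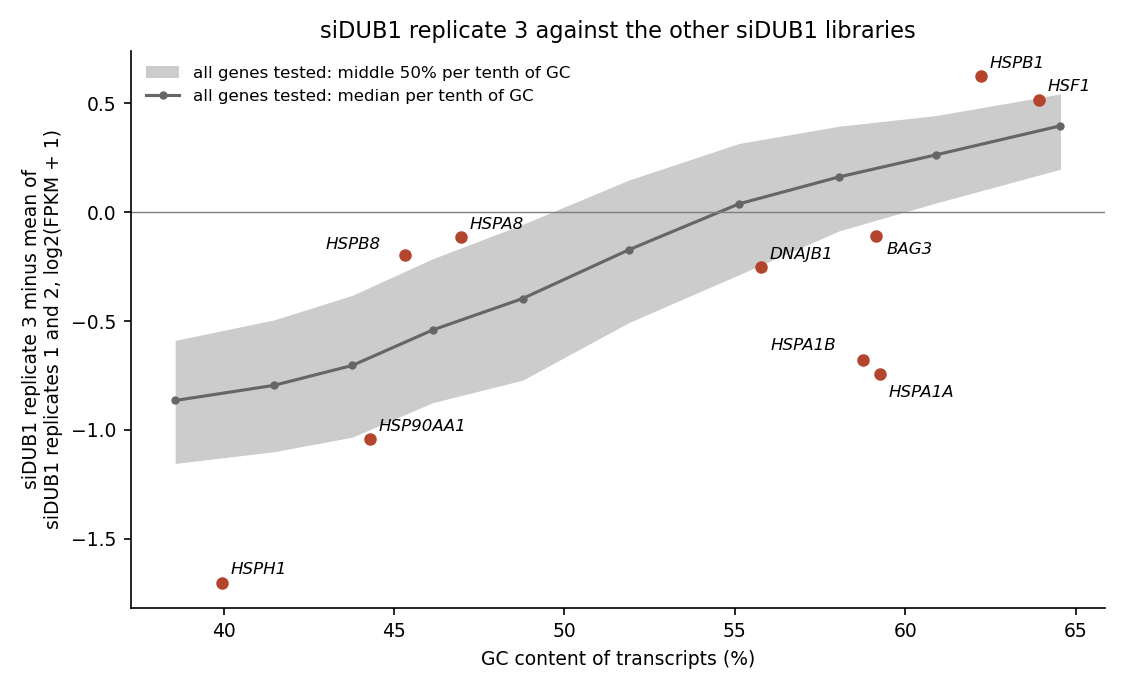
Difference of siDUB1 replicate 3 from the mean of siDUB1 replicates 1 and 2, on the log2(FPKM + 1) scale, against the GC content of transcripts in percent. The line and band give the median and the middle 50% of all tested genes in each of 10 bins of GC content, from a median of -0.86 to 0.40, and red points are the 10 genes, from -1.70 for HSPH1 to 0.63 for HSPB1.

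In siControl cells the order of the messages, in mean FPKM, was HSPA8, HSPB1, HSP90AA1, HSPA1B, HSPB8, DNAJB1, HSPH1, HSF1, BAG3 and HSPA1A. HSPB8 and DNAJB1 were the only neighbours in that order whose libraries overlapped, at 103.75 and 102 FPKM on average. In siDUB1 cells HSPB8 stood in place 7 of 10, below DNAJB1, HSPA1B and HSF1, and its libraries overlapped with those of HSPH1. HSF1 moved above HSPB8 and HSPH1, with no overlap with HSPB8. The 10 messages together made up 0.411%, 0.415% and 0.339% of all FPKM in siDUB1 replicates 1, 2 and 3, against 0.533%, 0.528% and 0.524% in siControl replicates 1, 2 and 3. Most of this sum was HSPA8 and HSPB1.

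Ratios between members, taken within each library, showed where their proportions moved. HSPA8 stood at 15.3, 16.4 and 10.1 times the FPKM of HSF1 in siDUB1 libraries, against 24.4, 25.9 and 26.2 times in siControl libraries, without overlap. The inducible HSP70 messages, HSPA1A plus HSPA1B, stood at 0.134, 0.141 and 0.0914 of the constitutive HSPA8 in siDUB1 libraries, against 0.139, 0.119 and 0.127 in siControl libraries, so the groups overlapped. HSP90AA1 over HSP90AB1 was 0.962, 0.951 and 0.608 in siDUB1 libraries, against 0.829, 0.858 and 0.865 in siControl libraries, with siDUB1 libraries on both sides of the controls. Ratios of genes that differ in GC content carry the deviation of siDUB1 replicate 3.

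**Figure D4:**
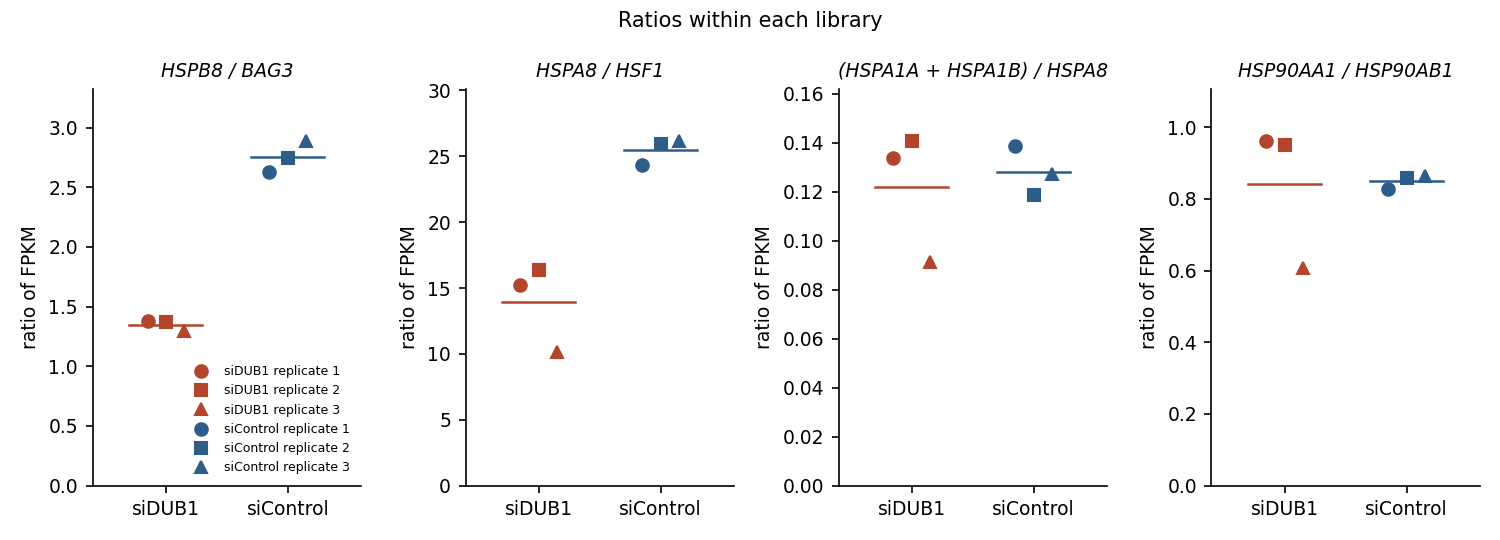
Ratios of FPKM within each library, siDUB1 left of siControl, with points for libraries and lines for means of 3; axes start at 0. HSPB8 over BAG3 is 1.29 to 1.38 in siDUB1 and 2.62 to 2.89 in siControl, while the ratio of inducible to constitutive HSP70 and that of the HSP90 paralogues overlap between groups.

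Of the 9 members with RefSeq promoter windows, 7 held at least 1 core of inverted repeats in the 250 bases before a start site. By window it was 7 of 12, since DNAJB1 and HSP90AA1 have several start sites, against 11.6% of all windows. HSPB1 held 1 core, GAAGGTTC, 182 to 175 bases before its start, while BAG3 and HSPH1 held none in these windows. The 2 genes without a core had log2 changes of -0.21 and -0.28 without siDUB1 replicate 3, while the 7 genes with a core ran from -1.19 for HSPB8 to 0.096 for DNAJB1.

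The wider chaperone system was described by family. Every call made in these families and in the lists of HSF1 regulators and BAG3 partners with all 6 libraries was lost when any 1 siControl library was left out. Counts with all 6 libraries stand against 5.92% of all genes lower and 8.13% higher. Counts at an unadjusted p under 0.05 stand against 1677 lower and 2006 higher of the 10994 genes tested. The counts without siDUB1 replicate 3 stand against 25.6% of all genes lower and 31.7% higher in that fit. Among other cytosolic HSP70 and HSP110 genes limma called none of 4 tested (0 at an unadjusted p under 0.05), and among 9 other J-domain genes it called none (0 higher and 3 lower at an unadjusted p under 0.05). HSPA4L, of the HSP110 kind, had 6.59, 6.78 and 2.31 FPKM in siDUB1 libraries, against 9.03, 8.59 and 9.12 FPKM in siControl libraries (log2 change -0.77, limma adjusted p = 0.162). HSPA14 and DNAJB5 had log2 changes of -0.66 and -0.29 (limma, adjusted p = 0.18 and 0.126). DNAJB4, a J-domain protein of the DNAJB1 class, averaged 1.01 ± 0.522 FPKM in siDUB1 and 2.04 ± 0.235 FPKM in siControl (SD, n = 3 in each group; log2 change -0.63, limma adjusted p = 0.0877). With that library left out, 2 of the 4 HSP70 and HSP110 genes and 5 of the 9 J-domain genes fell and none rose. IFT25, listed as HSPB11 and now counted among intraflagellar transport genes, was the only other small heat shock gene tested and did not pass with all 6 libraries (log2 change -0.50, limma adjusted p = 0.0541), and it fell without siDUB1 replicate 3 (log2 change -0.38, limma adjusted p = 5.2e-04).

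Of 9 BAG proteins and exchange factors 1 rose and none fell: SIL1, whose product is an exchange factor in the endoplasmic reticulum, averaged 34.4 ± 7.43 FPKM in siDUB1 and 18.7 ± 0.545 FPKM in siControl (SD, n = 3 in each group; log2 change 0.82, limma adjusted p = 0.0227). Among HSP90AB1 and 18 HSP90 co-chaperones and related genes, TOMM34, a co-chaperone for mitochondrial import, rose (log2 change 0.53, limma adjusted p = 0.00913) and FNIP2, an inhibitor of the HSP90 ATPase, fell (log2 change -0.66, limma adjusted p = 0.0491). The FNIP2 call was also lost with no filter on low values, pseudocount 0.1 or 0.01, robust variances or the replicate block. It was lost without siDUB1 replicate 1 or 2 as well, and a filter of 5 FPKM left FNIP2 untested. Of 14 TRiC and prefoldin subunits 2 rose and none fell. These were PFDN2 and PFDN6 of prefoldin, which hands unfolded actin and tubulin to TRiC, with log2 changes of 0.63 and 0.73 (limma, adjusted p = 0.0145 and 0.0494). In 7 of the alternatives with all libraries 1 of the 14 was called higher. No TRiC subunit passed with all 6 libraries. Of 12 mitochondrial chaperones and proteases 2 rose and none fell, the HSP90 paralogue TRAP1 (log2 change 0.51, limma adjusted p = 0.0445) and the protease LONP1 (log2 change 0.81, limma adjusted p = 0.0104). With size factors, no filter on low values, no variance trend or robust variances, 1 of the 12 was called higher. The same count held without siDUB1 replicate 1 or 2. With siDUB1 replicate 3 left out, 2 BAG proteins and exchange factors rose and 2 fell, 5 of the HSP90 list rose and 5 fell, 3 TRiC and prefoldin subunits rose and 3 fell, and 6 mitochondrial genes rose and none fell.

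Of 16 tested chaperones of the endoplasmic reticulum, 3 fell and none rose with all 6 libraries, where 5.92% of all genes were lower. At an unadjusted p under 0.05, 9 were lower and 0 higher, where 1677 of the 10994 tested genes were lower. Without siDUB1 replicate 3, 13 fell and none rose, where 25.6% of all genes were lower. CRELD2 averaged 27.6 ± 0.708 FPKM in siDUB1 and 36.6 ± 0.742 FPKM in siControl (SD, n = 3 in each group; limma adjusted p = 0.027). CALR, of calreticulin, averaged 808 FPKM in siDUB1 and 1061 FPKM in siControl (limma, adjusted p = 0.0418), and the third gene was CANX, of calnexin, named after its value was seen (log2 change -0.83, limma adjusted p = 0.0497). With all 6 libraries and no filter on low values, 1 of the 16 was called lower. The count was 2 with a filter of 5 FPKM, pseudocount 0.1 or 0.01, no variance trend or robust variances. It was 4 with size factors and 7 with quantile normalization.

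**Figure D5:**
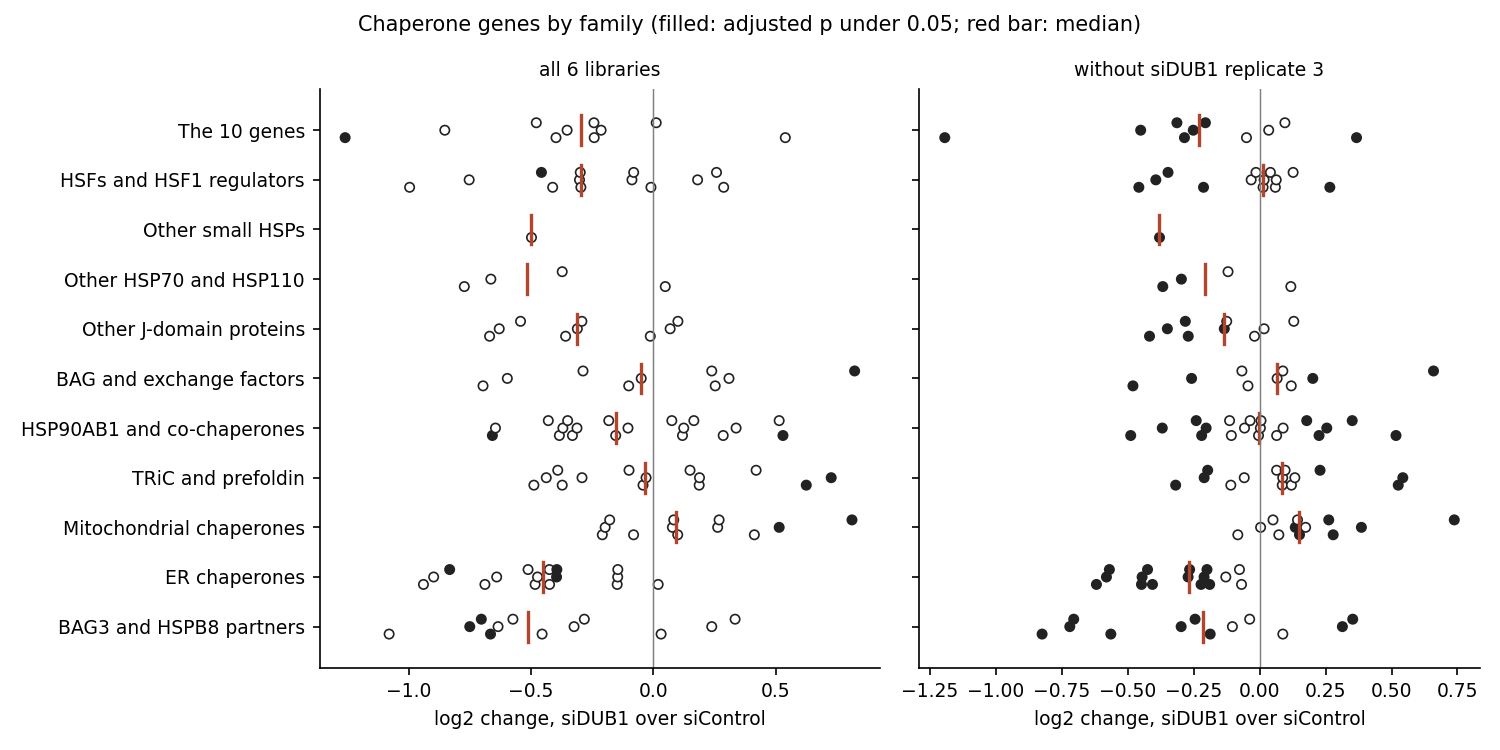
Log2 change, siDUB1 over siControl, of every tested gene in each chaperone family, with all 6 libraries (left) and without siDUB1 replicate 3 (right); each point is a gene, filled where its adjusted p is under 0.05, and red bars are medians. HSPB8 is the filled point at -1.26 among the 10 genes, and filled points among endoplasmic reticulum chaperones lie on the negative side only, 3 on the left and 13 on the right.

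Of 13 tested heat shock factors and regulators of HSF1 limma called 1 lower and none higher, where 5.92% of all genes were lower. MAPKAPK2, the kinase MK2 that phosphorylates HSPB1 and HSF1, averaged 44.5 ± 3.40 FPKM in siDUB1 and 61.4 ± 2.11 FPKM in siControl (SD, n = 3 in each group; log2 change -0.46, limma adjusted p = 0.025). Of 24 other tested genes induced by heat shock through HSF1, a list that shares genes with the chaperone families, limma called none with all 6 libraries (2 higher and 4 lower at an unadjusted p under 0.05). ZFAND2A, a proteasome adaptor induced by arsenite and heat, came closest to passing with DNAJB4 (log2 change -0.40, limma adjusted p = 0.089). With all 6 libraries the median of that list was -0.30, as for the 10 genes. Leaving out siDUB1 replicate 3 gave 10 genes that fell and 4 that rose of 24. Of all genes 57.3% were then called, 25.6% lower and 31.7% higher. The median was then -0.11 for that list, -0.23 for the 10 genes and 0.023 for all genes tested.

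With all 6 libraries, 3 of 12 tested partners and clients of BAG3 and HSPB8 fell and none rose. Of all genes, 5.92% were lower and 8.13% higher. SQSTM1, the autophagy receptor p62, averaged 157 ± 5.49 FPKM in siDUB1 and 255 ± 3.47 FPKM in siControl (SD, n = 3 in each group; log2 change -0.70, limma adjusted p = 0.00486). FLNA, the filamin that the BAG3 pathway clears, averaged 192 ± 18.3 FPKM in siDUB1 and 323 ± 18.2 FPKM in siControl (SD, n = 3 in each group; log2 change -0.75, limma adjusted p = 0.0089). GABARAPL1, an autophagosome protein of the ATG8 family named after its value was seen, fell by 0.67 on the log2 scale (limma, adjusted p = 0.0242). STUB1, the ubiquitin ligase CHIP that works with BAG3 and also named after its values were seen, had 71.8, 67.9 and 96.0 FPKM in siDUB1 libraries, against 61.4, 69.1 and 66.7 FPKM in siControl libraries, and did not pass (limma, adjusted p = 0.276). When siDUB1 replicate 3 was left out, 7 of the 12 fell and 2 rose, where 25.6% of all genes fell and 31.7% rose.

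Genes with the profile most like each member were ranked by the root mean square difference of centred log2(FPKM + 1) values over the 6 libraries, among 8013 other genes with a mean of at least 5 FPKM. For HSPB8 the nearest were SLC7A7, the light chain of an amino acid transporter, ID1, a BMP-responsive inhibitor of transcription, and CD55, which protects cells from complement, at 0.023, 0.045 and 0.050. SLC7A7 stood at 72.8, 71.7 and 62.9 FPKM in siDUB1 libraries, against 165, 165 and 168 FPKM in siControl libraries. The heat shock gene nearest to HSPB8 among the members was HSPA1B, at rank 832, and BAG3 was at rank 1886. For BAG3 the nearest included CAMK2N1 and CDC42BPG, at 0.024 and 0.026, and the nearest member was HSPA8 at rank 195. For HSF1 they were LAMTOR2, of the Ragulator complex that anchors mTORC1 to lysosomes, SPPL2B, a protease of the membrane, and MTRNR2L6, at 0.015, 0.016 and 0.023.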

How the data were processed

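Total RNA from AGS cells, extracted with Trizol, was made into libraries for the BGISEQ-500, per the labels' protocols. The authors deposited 1 table per library with a value in FPKM for 18597 NCBI Gene IDs, per the file headers, rounded to 2 decimals. The build was GRCh38, as the submitters' processing notes give it. Aligner, counting tool, annotation and use of strand are not given in the sources used here, and the depth is unknown, so no interval that needs it is given. Groups were taken from the sample titles. The RefSeq gene table (GRCh38.p14) named 18437 of the IDs.

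Genes with at least 1 FPKM in at least 3 of the 6 libraries (10994) were transformed to log2(FPKM + 1), a scale that understates the change of low genes, and tested two-sided in limma 3.58.1 (R 4.3.3) by linear models whose moderated variances followed a trend on mean level, with no covariate and Benjamini-Hochberg adjustment over all genes tested. An exact permutation test of 3 against 3 cannot go below 0.1, so calls rest on the model's shared spread. The test was tried on simulated data. GC content and length were medians over protein-coding GENCODE transcripts, and the correction removed from each library its deviation from the mean of the libraries fitted with natural splines (4 degrees of freedom for each property).

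The members were taken by symbol with no threshold, but they, the lists and the alternatives were chosen with earlier results of these data known, so their counts are descriptions. Genes named were the 10 members, the target, up to 2 higher and 2 lower genes per list by adjusted p (or up to 2 by p where none passed), and the 3 genes most like HSPB8, BAG3 and HSF1, of which 1 is not reported here. Promoter windows were the 250 bases before each RefSeq start site.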

Additional observations from a re-analysis of the deposited data

How the results depend on the processing

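HSPB8 kept its direction and its call in all 18 alternatives (adjusted p of at most 0.0295). HSPA1A, HSP90AA1 and DNAJB1 passed in none, and BAG3, HSPB1, HSPA1B, HSPA8, HSPH1 and HSF1 passed in 4, 5, 2, 4, 2 and 5 alternatives. The members called lower were 3 with quantile normalization (1190 of 10994 genes) and 2 with a filter of 5 FPKM (465 of 8256 genes). They were 3 with the GC and length correction (1629 of 10907) and 6 with that correction without siDUB1 replicate 3 (3071 of 10907). With the replicate block and the correction they were 3 (1161 of 10907). Leaving out 1 library at a time gave 1 to 6 members lower and 0 to 1 higher. Of the 10994 genes, 71 to 2818 were then lower and 54 to 3481 higher. The members called higher numbered 1 with quantile normalization (1364 of 10994) and with the correction (1852 of 10907). The number was also 1 with the correction without siDUB1 replicate 3 (3299 of 10907), and with the replicate block and the correction (1238 of 10907).

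Over all genes, with 894 higher and 651 lower in the main comparison, the counts were 1364 and 1190 with quantile normalization, 1852 and 1629 with the correction, 3299 and 3071 with the correction without siDUB1 replicate 3, and 1238 and 1161 with the replicate block and the correction. They ran from 54 to 3481 higher and from 71 to 2818 lower when 1 library was left out, lowest without siControl replicate 1 and highest without siDUB1 replicate 3. The cause was not tested. The replicate block gave 81 higher and 98 lower genes, with HSPB8 still called (adjusted p = 0.0287) and 0 genes called in the lists of HSF1 regulators, BAG and exchange factors, HSP90 co-chaperones, prefoldin, mitochondrial and endoplasmic reticulum chaperones and BAG3 partners. Left out in turn, each siControl library also left 0 calls in these lists. With the correction and all 6 libraries, 14.9% of all genes were lower and 17.0% higher. Then 12 of 16 endoplasmic reticulum chaperones were lower. With the replicate block added, 8 were lower, where 1161 of 10907 genes were. Lower with the correction were 3 of 9 other J-domain, 5 of 24 other HSF1 target and 1 of 4 other HSP70 and HSP110 genes, with none higher. Of 12 BAG3 partners 4 were lower and 1 higher. Of the HSP90 list 1 was lower and 2 higher, as for TRiC and prefoldin. The other families kept their main counts. The labels give no pairing by replicate number. Deviations of same-numbered libraries from their group means correlated at 0.254, -0.491 and -0.227. These values cannot decide on a pairing, since siDUB1 replicate 3 dominated the siDUB1 deviations. Against siControl replicate 1, siDUB1 replicates 1, 2 and 3 correlated at 0.254, 0.296 and -0.289. With size factors the counts were 696 and 719, so the share of higher calls was 49.2% against 57.9%.

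Among the 10 genes, directions turned for DNAJB1 and HSPA1A, and the cause was not tested. DNAJB1, at 0.012, was at -0.11 with quantile normalization, at -0.15 with the correction with or without the replicate block, at -0.020 with the correction without siDUB1 replicate 3, and between -0.043 and 0.096 when 1 library was left out. HSPA1A, at -0.21, ranged from -0.34 to 0.034 when 1 library was left out, and was highest without siDUB1 replicate 3. Depth is unknown, so counting error of low genes could not be set apart.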

Other observations

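Several heat shock genes were too low for the main test and are given as values. With no filter on low values, limma called 1 of the other HSP70 and HSP110 genes lower. It also called 1 of the other HSF1 targets lower, where 604 of 17900 genes were lower. HSPA6, HSPA4 and HSPA4L are in both lists, and the genes called in that fit are not named here. HSPA6, an HSP70 gene that is nearly silent without stress, stood at 0.13, 0.07 and 0.07 FPKM in siDUB1 replicates 1, 2 and 3, against 0.37, 0.43 and 0.35 FPKM in siControl replicates 1, 2 and 3, so the groups did not overlap. CRYAB, of alpha-B crystallin, stood at 0.90, 0.90 and 0.88 FPKM in siDUB1 libraries, against 1.00, 1.19 and 0.80 FPKM in siControl libraries, and the groups overlapped. Both were named after their values were seen.

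Angiomotin-like and LATS genes, whose products bind the WW domain of BAG3, were in the list of its partners. AMOTL2 stood at 11.7, 11.5 and 4.77 FPKM in siDUB1 libraries, against 21.3, 18.0 and 19.3 FPKM in siControl libraries, and did not pass with all 6 libraries (log2 change -1.08, limma adjusted p = 0.0677), and it fell without siDUB1 replicate 3 (log2 change -0.70, limma adjusted p = 4.74e-06). AMOTL1 averaged 2.66 FPKM in siDUB1 and 2.46 FPKM in siControl and did not pass with all 6 libraries (limma, adjusted p = 0.933), though it rose without siDUB1 replicate 3 (log2 change 0.31, limma adjusted p = 0.00776). LATS1 averaged 2.88 FPKM in siDUB1 and 3.95 FPKM in siControl and did not pass (limma, adjusted p = 0.376). LATS2 averaged 1.78 FPKM in siDUB1 and 2.95 FPKM in siControl; it did not pass with all 6 libraries (limma, adjusted p = 0.195) and fell without siDUB1 replicate 3 (log2 change -0.24, limma adjusted p = 0.0268). These genes were named after their values were seen.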
